A study of Homo sapiens with 6 samples.

Results

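The transcripts of 47 genes that encode the proteasome were described in A375 cells, an established human melanoma line, with and without disruption of DUS1L. The 47 genes were chosen by name from the 63086 genes listed in the count table: 7 alpha and 7 beta subunits of the core particle, 3 immunoproteasome subunits, 10 subunits of the base and 8 of the lid of the regulatory particle, 4 activator genes, 7 assembly factors, and UBB, a gene for ubiquitin. All 47 passed the filter on low counts and were among the 16046 genes tested. DUS1L encodes a dihydrouridine synthase, which modifies uridines of tRNA. Knockout cells were obtained by CRISPR/Cas9 targeting of DUS1L and selection of clones, and wild-type cells were grown alongside without targeting, both in the same serum-supplemented medium. Each genotype had 3 libraries, which the submitters call biological replicates, made from TRIzol total RNA and read in pairs on a BGISEQ-500 instrument. The sources used here give neither the number of clones nor the edited alleles, so clonal variation cannot be told apart from an effect of the genotype. In these bulk libraries, fewer cells of a kind and less RNA per cell cannot be told apart.

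The proteasome is the barrel-shaped protease that degrades ubiquitin-tagged proteins. Its core particle is a stack of alpha and beta rings, with the proteolytic sites on the beta subunits PSMB5, PSMB6 and PSMB7. The regulatory particle caps the barrel: its base holds the ATPases that unfold substrates, and its lid removes ubiquitin chains. Under interferon, cells make the subunits PSMB8, PSMB9 and PSMB10, which take the places of the constitutive catalytic subunits and alter the peptides offered to T cells. Melanoma cells also use this route to display antigens.

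The libraries held between 17121315 and 18861514 estimated counts. DUS1L, the targeted gene, lay at 80.0, 75.7 and 77.0 CPM in wild-type and at 55.4, 54.7 and 53.1 CPM in knockout libraries, where CPM are TMM-scaled counts per 1e6 counts of a library. Its transcript fell by 0.51 ± 0.06 (SE) on the log2 scale (edgeR quasi-likelihood test, adjusted p = 1.7e-06), which checks the labels by direction only, since the edited bases are not known here. The first principal component (53% of the variance) separated the genotypes, and wild-type replicate 1 stood apart from the other wild-type libraries on the second (13.7%). SOX10 and MITF, transcription factors of the melanocyte lineage, were detected in all libraries, whereas the pigment genes TYR, DCT, PMEL and MLANA had at most 9 counts in any library. The sum of 8 melanocyte markers, nearly all of it SOX10, lay between 612 and 648 CPM in wild-type and between 479.6 and 546 CPM in knockout libraries. Of 9 leukocyte markers, PTPRC, CD3E and TYROBP had at most 9 counts in any library. The others were counted, mainly CD68 (mean 21.4 CPM in wild-type, 23.3 in knockout) and CORO1A (13.9, 9.85). LAPTM5 (2.29, 1.90), ITGB2 (1.96, 2.18), LYZ (1.47, 1.35) and CD14 (0.0949, 0.714) were low. The summed list lay between 38.2 and 43.9 CPM in wild-type and between 34.7 and 44.03 CPM in knockout libraries. The summed fibroblast list was widest in the knockout, 84.5 to 184 CPM against 40.9 to 107 CPM. Its means were higher in the knockout for COL1A1 (19.4 CPM in wild-type, 52.9 in knockout), COL1A2 (11.1, 29.7) and COL3A1 (17.7, 19.9). COL1A1 and COL1A2 were highest in knockout replicate 2. Means were lower in the knockout for PDGFRB (11.8, 6.36), DCN (5.98, 5.06) and LUM (4.94, 4.16). The epithelial list, mostly KRT18, was 482 to 528 CPM in wild-type and 573 to 598 CPM in knockout libraries. The part of these markers in the results below was not tested.

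Calls among the proteasome genes were mostly toward lower transcript levels in the knockout, and 13 of the genes called lower encode the core particle. Of the 47 genes, 22 were called lower and 2 higher at an adjusted p under 0.05, and 23 were not called. Among all genes tested, 41.2% were called, 20.7% lower and 20.5% higher, so the share called higher among the proteasome genes was below the background and the share called lower above it. Among the 8833 genes with a mean level at least that of the lowest proteasome gene, 28.0% were called lower and 25.0% higher. The median log2 fold change was -0.14 over the 47 genes and -0.00 over all genes tested, and 39 of the 47 values were negative. The changes were small. The 22 genes called lower fell by 1.10-fold (PSMD13) to 1.28-fold (PSMA2), with a median of 1.18-fold. None of the 47 was past 1.5-fold in the test against that size, which called 3.58% of all genes. The groups did not overlap for 30 of the 47 genes, against 51.1% of all genes tested. These 30 were the 24 called genes and PSMB7, PSMB10, PSMC2, PSMC3, PSMC4 and POMP. Without wild-type replicate 1, the library that stood apart, 23 genes were called lower, and without knockout replicate 1 the number was 15. This is a description and no test of the list against other genes.

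**Figure D1:**
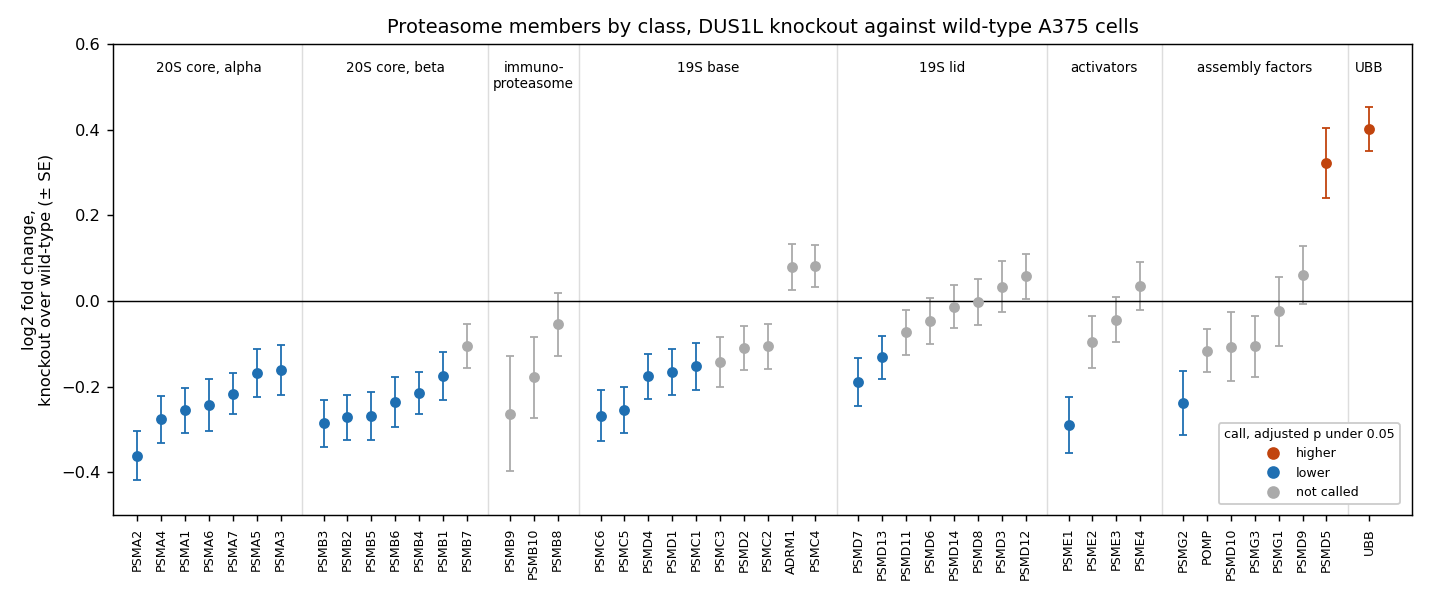
The vertical axis gives the log2 fold change (knockout over wild-type) of each of the 47 genes, with bars of 1 SE, sorted within classes along the horizontal axis. Blue, red and grey points stand for genes called lower, called higher and not called. All 14 core subunits lie below 0, from -0.36 for PSMA2 to -0.10 for PSMB7, and UBB is highest at 0.40.

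At the threshold, PSMD13 was the last gene inside with an adjusted p of 0.043, and PSMC3 the first outside with an adjusted p of 0.059, followed by POMP at 0.068. These 3 differ little in size, with log2 fold changes of -0.13, -0.14 and -0.12.

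Promoter sequences are shown for 4 genes whose transcripts were called in the knockout and that hold a match to a motif of stress or interferon regulation: PSMB3 and PSMB4 from the core beta ring, the activator PSME1, and the assembly factor PSMD5, the one subunit or assembly factor called higher. Other called genes with a match to a motif marked below, PSMA2, PSMB5 and PSMD1, are not shown. The 4 shown were chosen after their values were seen. They come from the RefSeq promoter table of GRCh38.p14 and read 5′ to 3′ on the gene's strand, from 250 to 32 bases before the start. Capitals mark matches to the antioxidant response element (TGACNNNGC, the site of NFE2L1 and NFE2L2 with small MAF proteins), the heat shock element (GAANNTTC or TTCNNGAA), the interferon gamma activated site (TTCNNNGAA) or the interferon-stimulated response element, on either strand.
PSMB3: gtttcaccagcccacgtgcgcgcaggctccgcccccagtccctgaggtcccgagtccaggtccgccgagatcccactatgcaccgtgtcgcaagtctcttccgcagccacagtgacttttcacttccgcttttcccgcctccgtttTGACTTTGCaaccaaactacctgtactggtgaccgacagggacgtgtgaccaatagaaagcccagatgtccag
PSMB4: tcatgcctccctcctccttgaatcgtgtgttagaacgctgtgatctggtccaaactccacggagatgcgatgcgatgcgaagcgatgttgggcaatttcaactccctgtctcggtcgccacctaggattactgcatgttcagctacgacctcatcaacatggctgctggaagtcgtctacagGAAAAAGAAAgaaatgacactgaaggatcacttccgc
PSME1: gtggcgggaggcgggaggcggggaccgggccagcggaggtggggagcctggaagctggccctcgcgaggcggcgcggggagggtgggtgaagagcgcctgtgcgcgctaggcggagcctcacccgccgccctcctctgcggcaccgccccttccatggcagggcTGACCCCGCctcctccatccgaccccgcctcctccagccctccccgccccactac
PSMD5: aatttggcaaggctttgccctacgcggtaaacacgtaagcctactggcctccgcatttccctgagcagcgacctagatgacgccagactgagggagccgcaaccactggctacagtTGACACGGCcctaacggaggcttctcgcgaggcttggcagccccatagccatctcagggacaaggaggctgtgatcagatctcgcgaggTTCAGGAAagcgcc
The PSMB3 stretch is chr17:38752491-38752709 on the plus strand, and its capitals are an antioxidant response element 104 to 96 bases before the start. The PSMB4 stretch is chr1:151399323-151399541 on the plus strand, with an interferon-stimulated response element 68 to 59 bases before the start. The PSME1 stretch is chr14:24135944-24136162 on the plus strand, with an antioxidant response element 86 to 78 bases before the start; the interferon-stimulated response element of its window lies nearer the start, outside the printed stretch. The PSMD5 stretch is chr9:120842954-120843172 on the minus strand. It holds an antioxidant response element 134 to 126 bases before the start and, at 45 to 38 bases, a heat shock element. The heat shock patterns are their own reverse complements, so any match lies on both strands.

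Of the 47 genes, 40 had a promoter window (250 bases before to 50 after the start) whose start lay within 50 bases of that of the MANE Select transcript, the reference transcript agreed for each gene. PSMA7, PSMB1, PSMB6, PSMB7, PSMD4, PSMG3 and UBB were not used here. The antioxidant response element was in 13 of the 40 windows (32.5%) and in 14.5% of the 14487 windows in the table. It was in 3 of the 18 windows of genes called lower, in 9 of the 21 windows of genes not called, and in 1 of the 10 core subunit windows, that of PSMB3. The interferon-stimulated response element was in 5 windows (12.5%, against 3.1% of all windows), those of PSMB4, PSMB8, PSMB10, PSME1 and PSME2. The interferon gamma activated site was in 6 windows (15.0% against 6.65%) and the heat shock element in 3 (7.5% against 10.7%). The NF-Y box CCAAT was in 18 windows (45.0% against 37.1%), and the NF-kB pattern in 27 (67.5% against 69.6%). Among the 10280 windows of genes tested, 15.1% held the antioxidant response element and 2.82% the interferon-stimulated response element. The interferon gamma activated site was in 6.08% of these, the heat shock element in 9.27%, the NF-Y box in 37.4% and the NF-kB pattern in 75.7%. The heat shock, interferon gamma and NF-kB patterns can overlap each other's letters. These are matches of letters and show no binding.

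The core particle had the most uniform change. Of the 14 alpha and beta subunit transcripts, 13 were called lower and 1 was not called, with a median log2 fold change of -0.24 (12 called without wild-type replicate 1 and 10 without knockout replicate 1, where PSMA3, PSMA5 and PSMB1 were lost). For all 14 every knockout library lay below every wild-type library. Among all genes tested, 20.7% were called lower, and the groups did not overlap, in either direction, for 51.1%. Summed over the 14 genes, the level was 3263.5, 3425 and 3163 CPM over the wild-type and 2772, 2827.5 and 2833 CPM over the knockout libraries, so that the knockout mean was 85.6% of the wild-type mean. The knockout libraries ran from 84.4% to 86.3% of the wild-type mean, while the wild-type libraries ran from 96.3% to 104%.

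All 7 alpha subunits, which form the outer rings and the gate of the barrel, were called lower, beside 20.7% of all genes tested. PSMA2 had the lowest log2 fold change of the 47 genes. It lay at 159, 178 and 159 CPM in wild-type and at 126, 132 and 128 CPM in knockout libraries, a fall of 0.36 ± 0.06 (SE, adjusted p = 4e-05). Its knockout libraries were close together and all well below the wild-type libraries. The gene lies at chr7:42916828-42932185 (GENCODE, GRCh38, minus strand), and a readthrough gene on the same strand shares 1445 of its exonic bases. PSMA4 lay at 262, 272 and 251 CPM in wild-type and at 203, 228 and 218 CPM in knockout libraries (log2 fold change -0.28, adjusted p = 0.0004). PSMA1 lay at 197, 196 and 184 CPM in wild-type and at 158, 163 and 163 CPM in knockout libraries (log2 fold change -0.26). PSMA7, the most abundant alpha transcript, lay at 405, 408.5 and 391 CPM in wild-type and at 348, 341 and 348 CPM in knockout libraries (log2 fold change -0.22). In all 3 the groups were clear of each other. PSMA6 fell by 0.24, PSMA5 by 0.17 and PSMA3 by 0.16 on the log2 scale. The calls for PSMA3 and PSMA5 depended on single libraries: without wild-type replicate 2 their adjusted p was 0.14 and 0.11, and without knockout replicate 1 it was 0.14 and 0.064. PSMA3 was also lost without wild-type replicate 3 (0.061) or knockout replicate 3 (0.07), and PSMA5 without knockout replicate 2 (0.063).

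Of the 7 constitutive beta subunits, 6 were called lower, beside the same 20.7% of all genes tested. The catalytic subunit PSMB5, which cuts after hydrophobic residues, lay at 162, 181 and 169 CPM in wild-type and at 140.0, 139 and 145 CPM in knockout libraries, a fall of 0.27 ± 0.06 (adjusted p = 0.0006). PSMB6, which cuts after acidic residues, lay at 133, 152 and 139.5 CPM in wild-type and at 123, 120.1 and 117 CPM in knockout libraries, a fall of 0.24 ± 0.06 (adjusted p = 0.0029). PSMB7, which cuts after basic residues, lay at 303, 330.5 and 299 CPM in wild-type and at 284, 289.9 and 293 CPM in knockout libraries. PSMB7 was the only core transcript not called (log2 fold change -0.10 ± 0.05, adjusted p = 0.11), although its groups did not overlap either. Whether PSMB7 differed less than the other core subunits was not tested. Among the structural beta subunits, PSMB2 lay at 253, 266 and 246 CPM in wild-type and at 215, 216 and 202 CPM in knockout libraries (log2 fold change -0.27, adjusted p = 0.00029). PSMB3, whose promoter is printed above, lay at 202, 215 and 196 CPM in wild-type and at 164, 163 and 177 CPM in knockout libraries (log2 fold change -0.29, adjusted p = 0.00031). PSMB4 lay at 477, 483 and 456 CPM in wild-type and at 399.9, 414 and 407 CPM in knockout libraries (log2 fold change -0.21, adjusted p = 0.0012). All knockout libraries were below all wild-type libraries for these 3 genes. PSMB1 fell by 0.17 (adjusted p = 0.018), a call that was lost without wild-type replicate 1 (0.057), knockout replicate 1 (0.056) or knockout replicate 2 (0.088).

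Per kilobase of transcript, core subunit values differed widely, but they rest on the length assigned to each gene. With the MANE Select transcript as the length, PSMB4 (514 ± 15.2 CPM per kb in wild-type, SD, n = 3) and PSMA7 (418 ± 9.73) were highest and PSMA5 (46.8 ± 2.87) was lowest. Next lowest were PSMB2 (57.6) and PSMA4 (59.8). With PSMA5, these have the longest MANE Select transcripts of the core (4426, 4378 and 3815 bases). Without a length, wild-type means ran from 141 CPM (PSMB6) to 472 CPM (PSMB4), with PSMB2 at 255 and PSMA4 at 262. How far the assigned length makes the spread was not tested. With all exonic bases merged as the length, PSMA7 (229) and PSMB4 (222) were again highest, and PSMA2 (19.7) was lowest, so the lower end of the order depends on the length used.

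**Figure D2:**
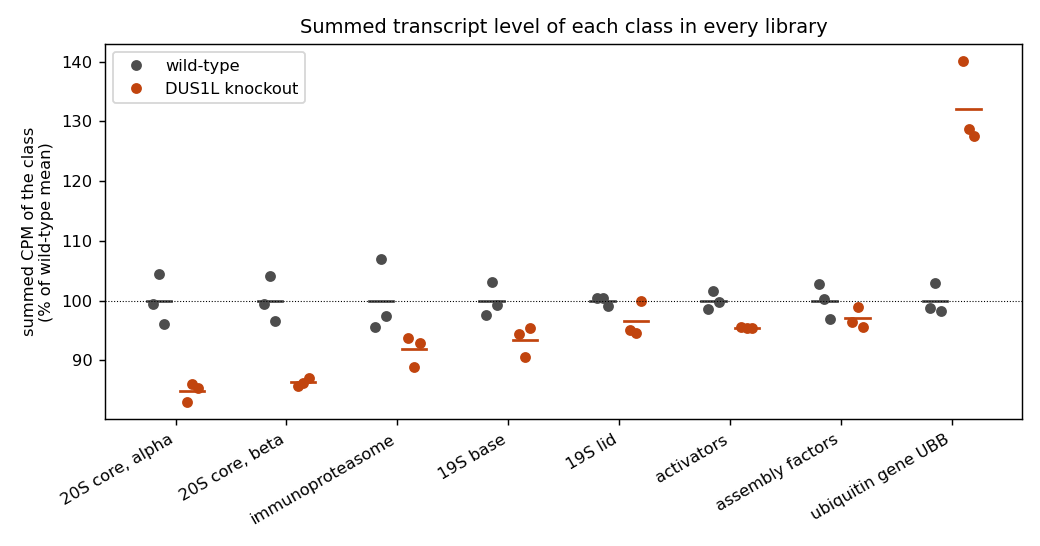
The vertical axis gives the summed CPM of each class in every library as a percentage of that class's wild-type mean. Points are libraries, grey for wild-type and red for knockout, and short lines are means. The alpha and beta sums of the knockout libraries lie at 83.0% to 87.1%, the lid sum of 1 knockout library comes up to the wild-type values, and UBB lies at 128% to 140.1%.

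Among all genes tested, 20.7% were called lower. Of the 10 base subunits, PSMC5, PSMC6, PSMC1, PSMD1 and PSMD4 were called lower and 5 were not called, with a median log2 fold change of -0.15. With the correction for length and GC content 9 were called, among them PSMC2 (-0.16, adjusted p = 0.011), PSMC3 (-0.15, 0.023) and PSMD2 (-0.16, 0.0085) lower and ADRM1 (0.12, 0.041) higher. The summed base level was 2267, 2397 and 2306 CPM in wild-type and 2193, 2106 and 2215 CPM in knockout libraries, a knockout mean of 93.5% of wild-type, and the groups did not overlap. The ATPases PSMC5 and PSMC6 were the base genes with the smallest p. PSMC5 lay at 212, 236 and 227 CPM in wild-type and at 191, 190.3 and 185 CPM in knockout libraries, a fall of 0.25 ± 0.05 (adjusted p = 0.00064). PSMC6 lay at 106, 101 and 103 CPM in wild-type and at 88.5, 80.6 and 87.8 CPM in knockout libraries, a fall of 0.27 ± 0.06 (adjusted p = 0.0011). Both had groups that were clear of each other. PSMD4, a ubiquitin receptor, lay at 299, 284 and 269.6 CPM in wild-type and at 253, 252 and 249.7 CPM in knockout libraries (log2 fold change -0.18, adjusted p = 0.0091). PSMD1, a scaffold of the base, lay at 165, 182 and 173 CPM in wild-type and at 154, 156 and 154 CPM in knockout libraries (log2 fold change -0.17, adjusted p = 0.017). The knockout values of both were tightly grouped below the wild-type values. PSMC1 fell by 0.15 (adjusted p = 0.029). Without wild-type replicate 2 the adjusted p of PSMD1 was 0.094 and that of PSMC1 0.15, and without knockout replicate 1 they were 0.056 and 0.073. PSMD1 was also lost without knockout replicate 3 (0.056) and PSMC1 without knockout replicate 2 (0.11), and the base count was 3 without wild-type replicate 2 or knockout replicate 1.

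The remaining base subunits were the ATPases PSMC2, PSMC3 and PSMC4, the scaffold PSMD2 and the ubiquitin receptor ADRM1. PSMC4 and ADRM1 had positive log2 fold changes, 0.08 in both, with adjusted p of 0.19 and 0.26. PSMC4 lay between 269.8 and 282 CPM in wild-type and between 289 and 299.8 CPM in knockout libraries, so that its groups stood apart in the direction opposite to those of PSMC5 and PSMC6, with no test of that difference. PSMC2, PSMC3 and PSMD2 had log2 fold changes of -0.11, -0.14 and -0.11. Without wild-type replicate 1, PSMC3 (adjusted p = 0.019) and PSMD2 (0.039) were called lower. The strand setting of the counting is not known, and 5 base genes share exonic bases with a protein-coding gene on the opposite strand: PSMC5 with FTSJ3, PSMC1 with NRDE2, ADRM1 with LAMA5, PSMC2 with SLC26A5 and PSMD1 with HTR2B. The mean count of SLC26A5 was 0 and that of HTR2B 1.7.

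The 8 lid subunits showed the least change of the regulatory particle, with 2 called lower, 6 not called and a median log2 fold change of -0.03. The summed lid level was 1809, 1811 and 1786 CPM in wild-type and 1713, 1704.5 and 1801 CPM in knockout libraries, with knockout replicate 3 inside the wild-type range. PSMD7 lay at 309, 303 and 282 CPM in wild-type and at 245, 261 and 279 CPM in knockout libraries (log2 fold change -0.19, adjusted p = 0.01), and its groups nearly met. PSMD13 lay at 220.4, 215 and 214 CPM in wild-type and at 195, 193 and 205 CPM in knockout libraries (log2 fold change -0.13, adjusted p = 0.043). The groups of PSMD13 did not overlap, but its call was lost in 8 of 14 alternatives, among them those without wild-type replicate 1 (0.058), 2 (0.077) or 3 (0.066) and without knockout replicate 1 (0.13) or 2 (0.13). PSMD7 was lost without knockout replicate 1 (0.082), and then none of the 8 lid genes was called. PSMD11 lay at 239, 249 and 265 CPM in wild-type and at 244, 235 and 237 CPM in knockout libraries, and PSMD12 at 166, 164 and 157 CPM and at 171, 165 and 171 CPM. The groups overlapped in both genes. PSMD14, the lid enzyme that cuts ubiquitin chains from substrates, averaged 170.4 ± 3.17 CPM in wild-type cells against 169 ± 3.05 CPM in the knockout (log2 fold change -0.01 ± 0.05). PSMD3, PSMD6 and PSMD8 had log2 fold changes of 0.03, -0.05 and -0.00, with adjusted p of 0.68, 0.51 and 0.98.

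None of the 3 immunoproteasome subunits was called, where 41.2% of all genes tested were called, so with 3 genes this count does not set the class apart. Their median log2 fold change was -0.18. At an unadjusted p under 0.05 the edgeR count was likewise 0, and DESeq2 and limma-voom called 0. PSMB8, the counterpart of PSMB5, lay at 52.0, 55.1 and 46.9 CPM in wild-type and at 49.7, 48.2 and 50.4 CPM in knockout libraries (log2 fold change -0.05 ± 0.07, adjusted p = 0.59). PSMB9, the counterpart of PSMB6, lay at 14.3, 20.6 and 19.5 CPM in wild-type and at 17.2, 13.3 and 14.9 CPM in knockout libraries (log2 fold change -0.26 ± 0.13, adjusted p = 0.13). PSMB10, the counterpart of PSMB7, lay at 20.9, 22.0 and 22.5 CPM in wild-type and at 18.7, 19.6 and 19.5 CPM in knockout libraries (log2 fold change -0.18 ± 0.09, adjusted p = 0.14). The groups overlapped for PSMB8 and PSMB9 and stood apart for PSMB10. Wild-type replicate 1 was the low wild-type library for PSMB9, and without it PSMB9 was called lower, at a log2 fold change of -0.41 (adjusted p = 0.0095). With PSMB9 at under 21 CPM in every library, its SE of 0.13 was above those of the core subunits (0.05 to 0.06).

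The immunoproteasome transcripts were a minority beside their constitutive counterparts. Per kilobase of MANE Select transcript, the level of PSMB8 was 28.0% ± 2.04 (SD, n = 3) of that of PSMB5 in wild-type and 32.4% ± 0.463 in knockout libraries. The libraries ran from 25.8% to 29.9% in wild-type and from 32.1% to 33.0% in the knockout and did not overlap. An exact two-sided permutation test gave p = 0.1, the smallest that 3 libraries against 3 allow, and 0.2 after Benjamini-Hochberg adjustment over the 4 ratios taken here. PSMB9 was at 10.3% ± 1.39 of PSMB6 in wild-type and at 10.2% ± 1.17 in knockout libraries, and PSMB10 at 7.08% ± 0.452 and 6.72% ± 0.0909 of PSMB7, with overlapping groups in both. Another choice of length moves these percentages in both genotypes alike and leaves their change as it is.

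The promoter of PSMB9 is shown beside that of TAP1, the peptide transporter gene with which it shares a stretch of DNA. Their start sites lie 488 bases apart and point away from each other. The PSMB9 stretch is chr6:32853942-32854160 on the plus strand, 250 to 32 bases before its start, and the TAP1 stretch is chr6:32853817-32853954 on the minus strand, 250 to 113 bases before its start, both from RefSeq on GRCh38.p14 with capitals as above.
PSMB9: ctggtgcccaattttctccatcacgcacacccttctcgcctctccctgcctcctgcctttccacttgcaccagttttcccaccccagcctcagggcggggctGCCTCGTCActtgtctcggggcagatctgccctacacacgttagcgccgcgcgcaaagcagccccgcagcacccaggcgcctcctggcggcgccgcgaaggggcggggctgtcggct
TAP1: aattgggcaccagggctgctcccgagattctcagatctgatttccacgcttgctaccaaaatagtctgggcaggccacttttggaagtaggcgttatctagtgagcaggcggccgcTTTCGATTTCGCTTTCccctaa
The PSMB9 capitals are an antioxidant response element on the other strand, 148 to 140 bases before the start. The TAP1 capitals are 2 interferon-stimulated response elements on the other strand, at 134 to 125 and 128 to 119 bases, which overlap. TAP1 lay at 48.1, 48.9 and 47.7 CPM in wild-type and at 75.3, 69.6 and 69.8 CPM in knockout libraries, a rise of 0.57 ± 0.07 (adjusted p = 7.8e-07). All knockout libraries of TAP1 were far above the wild-type ones, while PSMB9 was not called on the other side of the shared stretch. As a ratio of CPM, PSMB9 was at 37.6% ± 6.75 of TAP1 in wild-type and at 21.1% ± 1.85 in knockout libraries, without overlap (exact permutation p = 0.1, adjusted 0.2).

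Around the immunoproteasome, 12 interferon and antigen processing genes were read from the same fit: 5 were called higher and 1 lower, with a median log2 fold change of 0.10, where 20.5% of all genes tested were called higher and 20.7% lower. IRF1, the transcription factor that drives TAP1 and PSMB9 under interferon, lay at 83.7, 70.4 and 79.0 CPM in wild-type and at 167, 147 and 147 CPM in knockout libraries (log2 fold change 0.99, adjusted p = 1.7e-09), with no overlap. ERAP1, which trims peptides in the endoplasmic reticulum, fell by 0.26 (adjusted p = 0.002).

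**Figure D3:**
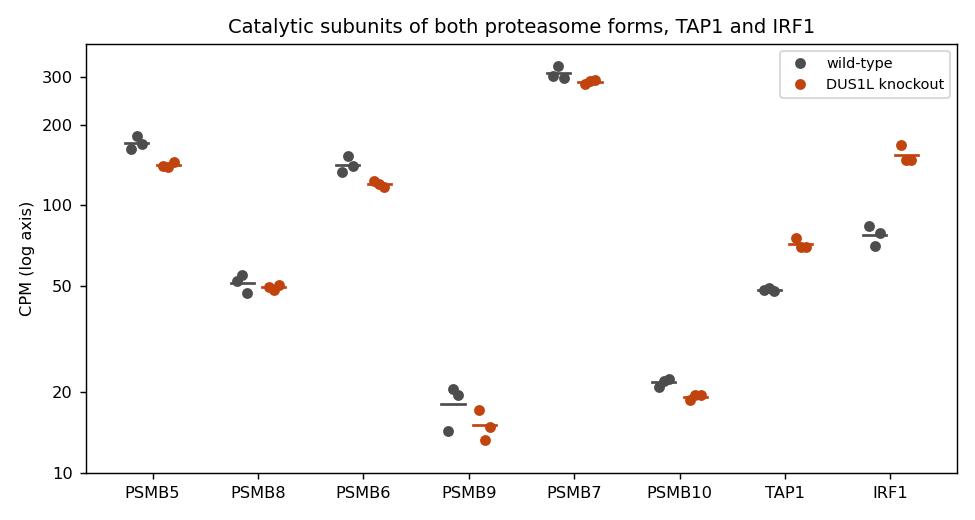
The vertical axis gives CPM on a log scale in each library for the constitutive catalytic subunits PSMB5, PSMB6 and PSMB7, each beside its immunoproteasome counterpart, and for TAP1 and IRF1. Grey points are wild-type and red points knockout libraries, and short lines are means. The groups overlap for PSMB8 and PSMB9, whereas TAP1 rises from 48.2 to 71.6 CPM and IRF1 from 77.7 to 154 CPM.

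Of the 4 activators, which open the barrel in place of the regulatory particle, PSME1 alone was called, beside 41.2% of all genes tested. PSME1 lay at 85.3, 82.7 and 75.5 CPM in wild-type and at 64.9, 64.9 and 69.5 CPM in knockout libraries, a fall of 0.29 ± 0.07 (adjusted p = 0.0012). Its partner in the same ring, PSME2, lay at 95.6, 107 and 97.2 CPM in wild-type and at 94.7, 89.7 and 96.2 CPM in knockout libraries (log2 fold change -0.10 ± 0.06, adjusted p = 0.23). The groups were apart for PSME1 and overlapped for PSME2, and the difference between the partners was not tested. PSME3, the nuclear activator, lay at 244, 260.3 and 269 CPM in wild-type and at 246, 259.9 and 245 CPM in knockout libraries (log2 fold change -0.04). PSME4, a large activator linked to histone turnover, lay at 134, 127 and 124 CPM in wild-type and at 137, 127 and 131 CPM in knockout libraries (log2 fold change 0.04). Both were mixed between the groups.

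Of the 7 assembly factors, 1 was called higher, 1 lower and 5 were not called, with a median log2 fold change of -0.11. Over all genes tested, 20.5% were called higher and 20.7% lower, so these counts do not set the class apart. PSMD5, a chaperone of the base, lay at 55.4, 52.2 and 55.1 CPM in wild-type and at 64.2, 78.4 and 60.8 CPM in knockout libraries, a rise of 0.32 ± 0.08 (adjusted p = 0.004). Knockout replicate 2 was the highest, and all 3 knockout libraries were above the wild-type ones. The PSMD5 call was kept in all 14 alternatives, with adjusted p up to 0.040, but its rise was 0.20 without knockout replicate 2. PSMG2, which with PSMG1 guides alpha ring assembly, lay at 43.2, 42.9 and 44.5 CPM in wild-type and at 38.8, 34.6 and 37.3 CPM in knockout libraries, a fall of 0.24 ± 0.07 (adjusted p = 0.014). Its groups were apart, and its call was lost without wild-type replicate 3 (0.051) or knockout replicate 2 (0.067). POMP, which brings beta subunits onto the alpha ring, lay at 232, 235 and 223 CPM in wild-type and at 211, 216 and 209.7 CPM in knockout libraries (log2 fold change -0.12 ± 0.05, adjusted p = 0.068). PSMG3 lay at 54.7, 57.1 and 53.2 CPM in wild-type and at 53.2, 47.1 and 53.0 CPM in knockout libraries (log2 fold change -0.11, adjusted p = 0.25). POMP was lower in every knockout library and PSMG3 overlapped. PSMG1, and the base chaperones PSMD9 and PSMD10, had log2 fold changes of -0.02, 0.06 and -0.11 with adjusted p from 0.31 to 0.84.

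UBB had the highest log2 fold change of the 47 genes. UBB encodes a chain of ubiquitin units and is known to be induced under protein stress. It lies at chr17:16380798-16382745 on the plus strand (GENCODE, GRCh38). Its level was 515, 536 and 512 CPM in wild-type and 729.7, 670.4 and 664 CPM in knockout libraries, a rise of 0.40 ± 0.05 (adjusted p = 2.5e-06). The lowest knockout library was well above the highest wild-type library. Ubiquitin repeats are near-identical between genes, so the share of these reads that came from UBB is uncertain.

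Summed over all 47 genes, the proteasome transcripts stood at 93.8% of the wild-type mean in the knockout, and without UBB at 91.4%. In the latter sum the 3 knockout libraries lay between 7789 and 7987 CPM and the 3 wild-type libraries between 8429 and 8843 CPM.

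Proteasome genes that are not among the 47 were also read from the fit. Of 7 such genes, PSMA8 and PSMB11, subunits of the germ cell and thymus proteasomes, had at most 2 counts in a library and were not tested, and of the 5 tested genes 1 was called higher and 3 lower, where 41.2% of all genes tested were called. SEM1, a small lid subunit, fell by 0.38 ± 0.08 (adjusted p = 0.00068), from 66.3 ± 7.51 to 51.1 ± 2.74 CPM. PSMG4, the partner of PSMG3, fell by 0.42 ± 0.12 (adjusted p = 0.0099), and was lost without wild-type replicate 3 (0.055) or knockout replicate 2 (0.053). PSMF1, which encodes a proteasome inhibitor and regulator, rose by 0.25 ± 0.05 (adjusted p = 0.00088), from 123 ± 4.55 to 147 ± 3.42 CPM. In SEM1 and PSMF1 the groups did not overlap.

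The pathway that raises proteasome genes when proteasome activity is short runs from the transcription factor NFE2L1, which p97 extracts from the endoplasmic reticulum and the protease DDI2 cleaves, to antioxidant response elements bound with small MAF proteins. The list of 13 genes read around this pathway is wider than these steps. It also holds SEL1L, SYVN1, NGLY1, NFE2L2, KEAP1, BACH1, FBXW7 and BTRC, and it leaves out DDI2, which is in the list of proteasome-bound genes below. Of the 13, 7 were called higher and 1 lower, with a median log2 fold change of 0.23, against 20.5% higher and 20.7% lower over all genes tested. BACH1, NFE2L2, SYVN1 and FBXW7 are among those called higher, so the count does not describe the steps named above. MAFF rose from 56.7 ± 3.66 to 141 ± 10.6 CPM (log2 fold change 1.31, adjusted p = 1.2e-11), and MAFK and MAFG rose by 0.72 and 0.57. NFE2L1 itself was at 356, 324 and 336 CPM in wild-type and at 337, 341 and 360.3 CPM in knockout libraries (log2 fold change 0.03, adjusted p = 0.67), with overlapping groups. These small MAF proteins also serve other partners, among them NFE2L2 and BACH1, which were both in the list and rose by 0.35 and 0.61. Of 12 genes of the p97 complex, 4 were called higher and 2 lower, with a median of 0.04, a number of calls near the 41.2% over all genes tested. VCP, which encodes p97 and is in both lists, fell from 619 ± 20.5 to 506 ± 33.7 CPM (log2 fold change -0.29, adjusted p = 0.00019), the deubiquitinase YOD1 rose by 0.74 and the adaptor FAF2 by 0.27.

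Of 18 receptors, deubiquitinases and ligases that bind the proteasome, 6 were called higher, 1 lower and 11 not called, with a median log2 fold change of 0.05, again near the 41.2% called over all genes tested. ZFAND2A, which binds proteasomes under arsenite stress, rose from 38.2 ± 3.24 to 89.6 ± 4.35 CPM (log2 fold change 1.23, adjusted p = 7.8e-11). DDI2 rose from 38.7 ± 2.58 to 62.3 ± 1.09 CPM (log2 fold change 0.69, adjusted p = 2e-07) and MIDN, which carries nuclear proteins to the proteasome, rose by 0.42. Of 21 ubiquitin activating and conjugating enzymes, 5 were called higher and 6 lower, with a median of -0.02, beside the same 41.2% over all genes. These 11 calls were 5 without wild-type replicate 2 or knockout replicate 3, 6 without knockout replicate 1 and 7 without wild-type replicate 3. UBE2C and UBE2S, which serve the anaphase-promoting complex, fell by 0.82 and 0.30, and UBE2B rose by 0.36.

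**Figure D4:**
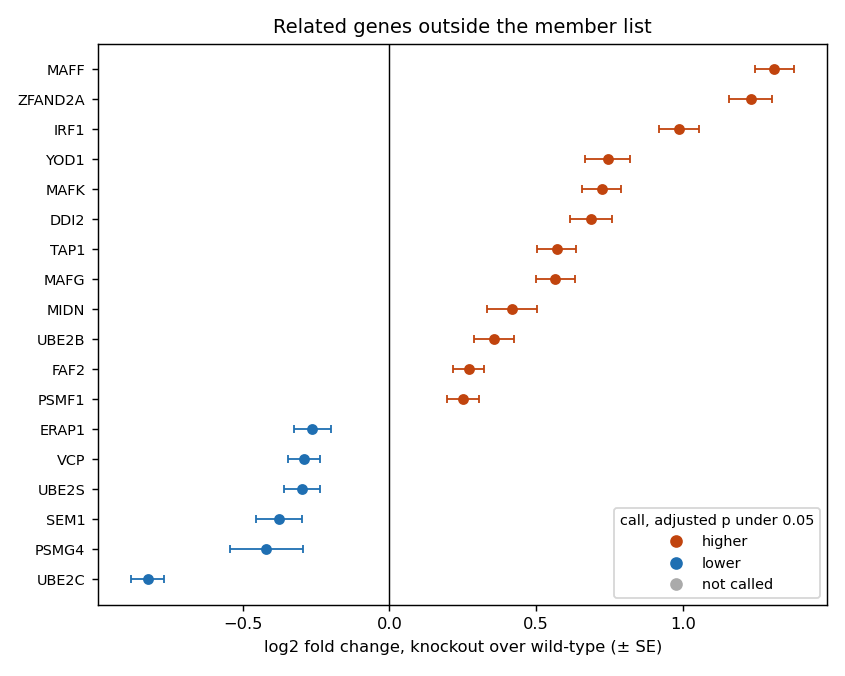
The horizontal axis gives the log2 fold change (knockout over wild-type), with bars of 1 SE, of 18 related genes outside the 47, which are those with the smallest p in each list. Red and blue stand for genes called higher and called lower, and none of the 18 is grey (not called). MAFF (1.31) and ZFAND2A (1.23) are highest and UBE2C (-0.82) is lowest.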

How the data were processed

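RNA-seq was read from 3 wild-type and 3 DUS1L knockout A375 libraries, grouped by sample title. The authors deposited 1 table of estimated counts (expected counts, which need not be whole) per Ensembl gene, with no normalization recorded. Per the submitters' processing notes, reads were placed on GRCh38 (hg38). The sources used here do not name the aligner, the counting tool or its strand setting, so reads of overlapping genes on opposite strands cannot be told apart. Of 63086 genes, 62541 (99.1%) matched GENCODE release 44 by identifier, which gave symbols, lengths and coordinates. All 47 proteasome genes matched.

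Counts were rounded, filtered with edgeR's filterByExpr (minimum count 10) and scaled by TMM, which left 16046 genes. CPM values use the scaled library sizes. Genotypes were compared by edgeR's quasi-likelihood test (robust; edgeR 4.0.16, R 4.3.3), two-sided, with genotype as the sole factor, with Benjamini-Hochberg adjustment over all genes tested and a threshold of 0.05. glmTreat tested changes past 1.5-fold. The biological coefficient of variation was 7.12%, and p-values measure only the spread between these libraries, since nothing ties them to separate cultures beyond the submitters' word. The procedure was run on simulated data in which few genes were changed, whereas 41.2% of genes were called here. That run therefore does not test the scaling or the calls in a setting like these data. No 2 libraries agreed within sampling noise.

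The members and lists were chosen with earlier results of these data known. Values in each library are given for the catalytic and immunoproteasome subunits, the activators, POMP, UBB and the 4 genes of each class with the smallest p; of each related list, up to 3 genes with the smallest p are named. BACH1, NFE2L1 and NFE2L2 were named after their values were seen, as were the gene neighbours of members. Levels per kilobase were planned with merged exons as the length. The MANE Select length was added after merged exons were found to hold long retained introns. Some genes of the lists are not reported here. Promoters came from RefSeq (GRCh38.p14). Library totals of 17121315 to 18861514 set the depth.

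Alternatives were RLE, upper quartile and library size scaling, no filter, DESeq2 1.42.0, limma-voom (limma 3.58.1), a replicate block, leaving out each library and, added after seeing the data, a correction for length and GC content.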

Additional observations from a re-analysis of the deposited data

How the results depend on the processing

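Of the 24 called proteasome genes, 16 were called in all 14 alternatives, among them 10 of the 13 core subunits, PSMD5 and UBB, and none of the 24 changed sign. The count of genes called lower ran from 15 (without knockout replicate 1) to 28 (correction for length and GC content), and the core count from 10 to 14. The median log2 fold change was -0.10 with library size only. The lid count was 1 with library size only, with no filter and with the replicate block, and 0 to 2 when single libraries were left out. The same omissions gave 3 to 7 base genes, 0 to 1 immunoproteasome genes, 1 to 2 assembly factors and 5 to 10 ubiquitin activating and conjugating enzymes. The base count was 9 with the correction for length and GC content. That correction also called the lid gene PSMD11 (-0.14, adjusted p = 0.023) and POMP (-0.17, 0.0038) lower. POMP was called lower with upper quartile scaling too (0.035). The cause of these shifts was not tested.

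Genes close to 0 and not called changed sign. PSMD8 was at 0.0020 with RLE scaling. With library size only PSMD8 was at 0.044, PSMD14 at 0.033, PSME3 at 0.0016 and PSMG1 at 0.022. When single libraries were left out, PSMD8 ran from -0.040 to 0.038, PSMD14 from -0.026 to 0.0023, PSMG1 from -0.080 to 0.065 and PSMD3 from -0.031 to 0.068. With the correction for length and GC content PSMD3 was at -0.013, PSMD12 at -0.0038 and PSME4 at -0.017.

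Same-numbered libraries did not deviate together (correlations -0.03, -0.001 and 0.026), and differently numbered ones gave -0.037 to 0.036. No pairing by replicate number was seen, and the sample titles state none, but values near 0 cannot exclude a weak one. With the replicate block 20 proteasome genes were called lower, with PSMC1 and PSMD13 lost. The median SE of the log2 fold change over the 47 genes was 0.06.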

Other observations

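Genes that share exonic bases with the proteasome genes gave the following values. FTSJ3, on the strand opposite PSMC5 with 655 shared bases, rose by 0.13 on the log2 scale (edgeR adjusted p = 0.045), while PSMC5 fell. NRDE2 covers 76.1% of the merged exonic bases of PSMC1 on the opposite strand, with a log2 fold change of 0.16 and no call (adjusted p = 0.26). LAMA5, opposite ADRM1, fell by 0.46 (adjusted p = 2.1e-05), and RNF31, opposite PSME2, fell by 0.52 (adjusted p = 0.0002), while ADRM1 and PSME2 were not called. ENSG00000259529, also opposite PSME2 with 23 shared bases, rose by 0.82 (adjusted p = 0.0045), and SPIRE1, opposite PSMG2 with 65 shared bases, rose by 0.37 (adjusted p = 0.0028), while PSMG2 fell. The readthrough gene on the strand of PSMA2 (ENSG00000256646) rose by 0.73 (adjusted p = 0.0005), from a mean of 9.33 to 15.5 CPM, against 165 and 129 CPM for PSMA2. ENSG00000261884, on the strand of PSMB10, covers 39.4% of the merged exonic bases of PSMB10, at mean counts of 85.0 and 364.4. Its log2 fold change was 0.18, with no call (adjusted p = 0.52). PSMB8-AS1, opposite PSMB8, covers 17.3% of the bases of PSMB8 and was not called (-0.26, adjusted p = 0.51). How far shared reads move these values was not tested. The counts of annotated pseudogenes were 2.38% of the joint count for PSMC1, the highest share among the 47 genes.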
